A study of Mus musculus with 48 samples.

Results

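The collagen chain genes are the protein-coding genes whose symbol has the form Col, a number, a and a number. The rule found 44 of the 55486 genes of the deposited count table, in 8 classes. They were read in bulk RNA-seq of a mouse study of QPCTL, an enzyme that cyclises the N-terminal residue of some proteins, such as the checkpoint ligand CD47 and several chemokines. The mice were of the strain QPCTL-KO C57/Bl6JR, either homozygous for the knockout allele or wild-type littermates. Spleen and bone marrow came from mice without a tumour, aged 10 to 15 weeks, as snap-frozen whole organs, with 8 samples of each (4 of each genotype). Tumour samples were 12 preparations of live CD45-negative cells, sorted 14 days after mice received B16F10, an established mouse melanoma line (6 of each genotype). Knockout mice received QPCTL-KO tumour cells and wild-type mice QPCTL-WT cells, so that in the tumours the genotype of the host and that of the melanoma line changed together. A further 20 of the 48 samples were lymph nodes, whose columns could not be tied to a group by name and were not used here. The columns also carry no genotype, so every group below mixes both genotypes, and although the titles number spleens and bone marrows alike within each genotype, the columns could not be matched to those numbers. Spleen and bone marrow may thus come from the same mice, and the tests below treat them as separate samples.

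Collagens are secreted proteins built from chains that wind into helical trimers. Fibrillar chains (types I, II, III, V, XI, XXIV and XXVII) form the tensile fibres of connective tissue and are made mainly by fibroblasts, bone cells and cartilage cells. Type IV chains form the sheet of basement membranes under endothelium and around many other cells, type VI chains form beaded filaments, and fibril-associated chains such as those of types XII, XIV and XVI sit on or beside the fibres. In spleen, collagens are known from the capsule, the vessels and the reticular fibre network, while haematopoietic cells make few of them. B16F10 cells are of melanocyte origin, and fibroblasts and vessel cells of a tumour also lack CD45, so the sort can hold them.

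How the counts are to be read comes before the results. The libraries were made with a kit that keeps the strand of the transcript. Yet mt-Nd6, the single mitochondrial coding gene on the light strand, had 107125 counts over the 28 libraries, against a median of 1420 for the 12 coding genes on the other strand. Genes of the antisense biotype held 17.7% of all counts. C430014B12Rik, whose exons share 563 bases with those of Col4a3 on the opposite strand, had 279 counts in the tumour libraries against 28 for Col4a3. Protein-coding genes held 70.4% of all counts, and the highest of the 12 mitochondrial genes, mt-Nd5, had 28880. Such values can arise where reads of the strand opposite to each gene are counted, which was not tested. The strand setting is not given in the sources used here. Whether reads from the chains' own strand give the same differences was not tested. The chains, and the marker and pathway genes, are described below by the counts as deposited. Partners on the opposite strand were looked up for the chains alone. Library totals were 54117 to 637985 counts, which is 0.301% to 3.54% of the average number of reads per sample that the labels give. Exons of 10 of the 44 chains share bases with a gene on the opposite strand, among them Col4a1 and Col4a2, which start back to back on chromosome 8 and share 22 bases there. Col1a1, Col1a2, Col3a1, Col16a1, Col14a1, Col5a3 and Col11a2 share none.

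The collagen counts were few. All chains together had 1103 counts in the 8 spleen libraries, 251 in the 8 bone marrow libraries and 2345 in the 12 tumour libraries. At least 1 count was seen for 36 chains in spleen, 25 in bone marrow and 39 in tumour cells. Col19a1 and Col22a1 had none in any library, 12 chains had under 10 counts in all, and 9 had 100 or more. Levels are given in CPM, counts scaled to a common library total, after TMM, a correction for differences in composition. The label of the tumour libraries fitted the markers. The summed level of 8 melanocyte genes was 2310 to 5920 CPM in the tumour libraries and at most 338 CPM in spleen, and 9 of 10 leukocyte genes, Ptprc (CD45) among them, were at 0 in all 12 tumour libraries. The 7 erythroid genes summed to 161 to 5690 CPM in spleen and to 58.8 to 196 CPM in bone marrow. The 9 osteoblast and cartilage genes summed to 5.74 to 13.1 CPM in spleen and to 38.2 to 68 CPM in bone marrow. Qpctl itself had 2 to 16 counts in the spleen libraries, 4 to 19 in bone marrow and 1 to 6 in tumour cells, too few to check a genotype. In the authors' deposited table Qpctl had a log2 fold change of 0.69 (adjusted p = 0.494).

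The patterns that the results turn on are set beside their promoters, because Col1a2 and Col3a1 were high in the same tumour libraries while Col16a1 was even across them. The 3 sequences are the 250 bases before the RefSeq start (GRCm38.p6, 5′ to 3′, gene strand), and capitals mark, on either strand, the CCAAT box, the TATA box searched as TATAAA, and the GC box searched as GGGCGG, motifs that do not overlap here. They lie at chr6:4505368-4505617, chr1:45311288-45311537 and chr4:130047590-130047839, all on the plus strand.
Col1a2: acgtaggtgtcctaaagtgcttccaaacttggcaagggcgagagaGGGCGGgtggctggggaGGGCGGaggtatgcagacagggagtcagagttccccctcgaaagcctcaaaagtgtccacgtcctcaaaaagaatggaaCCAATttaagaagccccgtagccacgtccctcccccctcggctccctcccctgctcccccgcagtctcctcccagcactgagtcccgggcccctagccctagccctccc
Col3a1: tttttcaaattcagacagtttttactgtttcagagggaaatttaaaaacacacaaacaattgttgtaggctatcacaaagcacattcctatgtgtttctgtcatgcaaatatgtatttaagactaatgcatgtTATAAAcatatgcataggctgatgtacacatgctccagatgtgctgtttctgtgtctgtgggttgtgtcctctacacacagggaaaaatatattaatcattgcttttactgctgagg
Col16a1: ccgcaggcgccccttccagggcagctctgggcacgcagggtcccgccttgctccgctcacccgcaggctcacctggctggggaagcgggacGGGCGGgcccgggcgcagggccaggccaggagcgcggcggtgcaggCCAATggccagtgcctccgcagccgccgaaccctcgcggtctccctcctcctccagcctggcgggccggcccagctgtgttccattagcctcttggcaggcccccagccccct
The Col1a2 window holds 1 CCAAT and 2 GGGCGG, the Col16a1 window 1 of each, and the Col3a1 window 1 TATAAA and neither of the others. Of the 32851 windows of this length in the RefSeq table, 33.8% hold CCAAT, 12.4% TATAAA and 32.7% GGGCGG. Of the 38 windows of 35 chains in that table, 13, 5 and 22 hold them. The CCAAT in the Col1a2 window begins 109 bases before the start and that in the Col16a1 window 113 bases before it. The TATAAA in the Col3a1 window begins 117 bases before the start, and whether it acts as a TATA box was not tested. The part of any of these motifs in the patterns was not tested either. The Col1a2 window lies inside the span that the count table gives for the gene, which begins at 4504814.

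**Figure D1:**
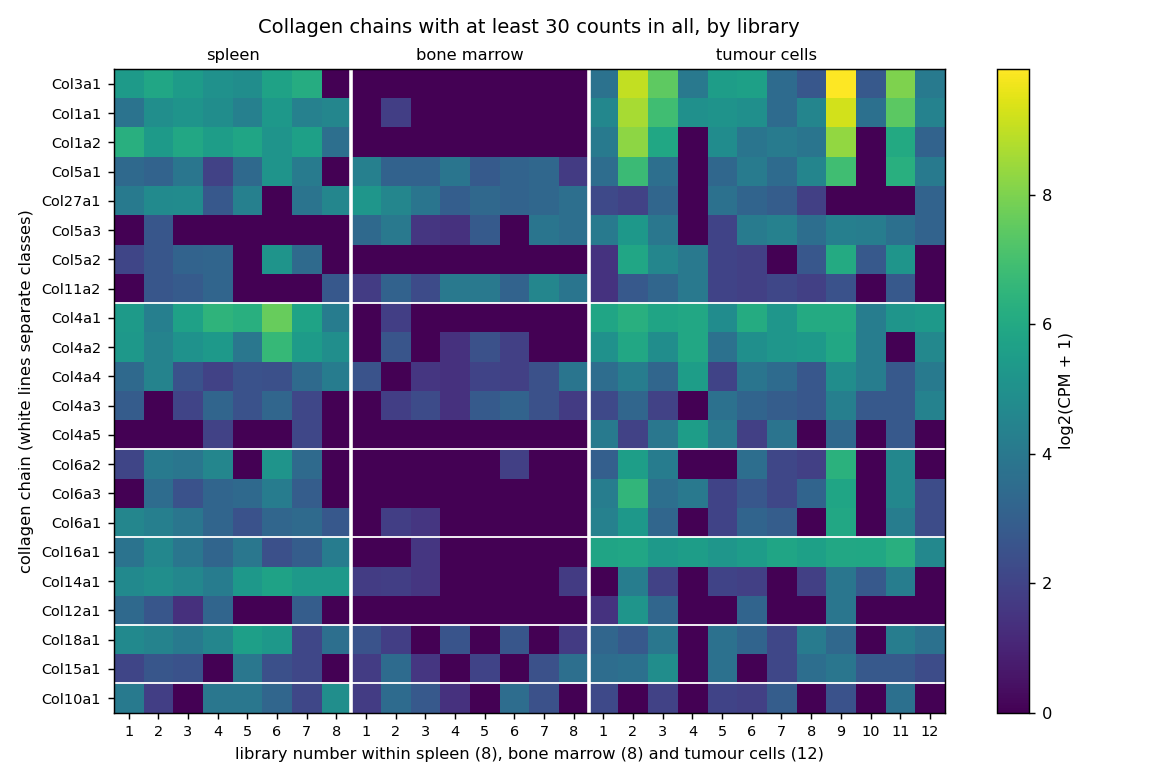
Level of the 22 chains with at least 30 counts over all libraries, as log2(CPM + 1), with 1 row per chain (grouped by class) and 1 column per library of spleen, bone marrow and tumour cells. Most rows are dark in bone marrow, Col16a1 is even across the tumour libraries, and Col3a1, Col1a1 and Col1a2 are brightest in tumour libraries 2 and 9.

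The fibrillar chains of types I and III set bone marrow apart from both other tissues. Col1a1 (chromosome 11, 94936224 to 94953042), the alpha 1 chain of type I, was at 12.7 to 38.7 CPM in the spleen libraries (median 25.7), and a single count was found in the 8 bone marrow libraries. Across the tumour libraries it ran from 9.96 through a median of 30.3 to 604 CPM. Col1a2 (chromosome 6, 4504814 to 4541544), its partner in the trimer, was at 11.5 to 76.5 CPM in spleen (median 47.6), at 0 in every bone marrow library, and at 0 to 318 CPM in tumour cells (median 16.2). Col3a1 (chromosome 1, 45311538 to 45349706), the chain of type III, which is prominent in reticular fibres, was at 0 to 69.6 CPM in spleen (median 41.9), at 0 in every bone marrow library, and at 5.46 to 978 CPM in tumour cells (median 30.6). The spleen and bone marrow ranges did not overlap for Col1a1 or Col1a2, and met for Col3a1 only because spleen library 8 had no count of it. In the tumours the medians of all 3 chains lay within the spleen range while the highest libraries lay far above it.

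**Figure D2:**
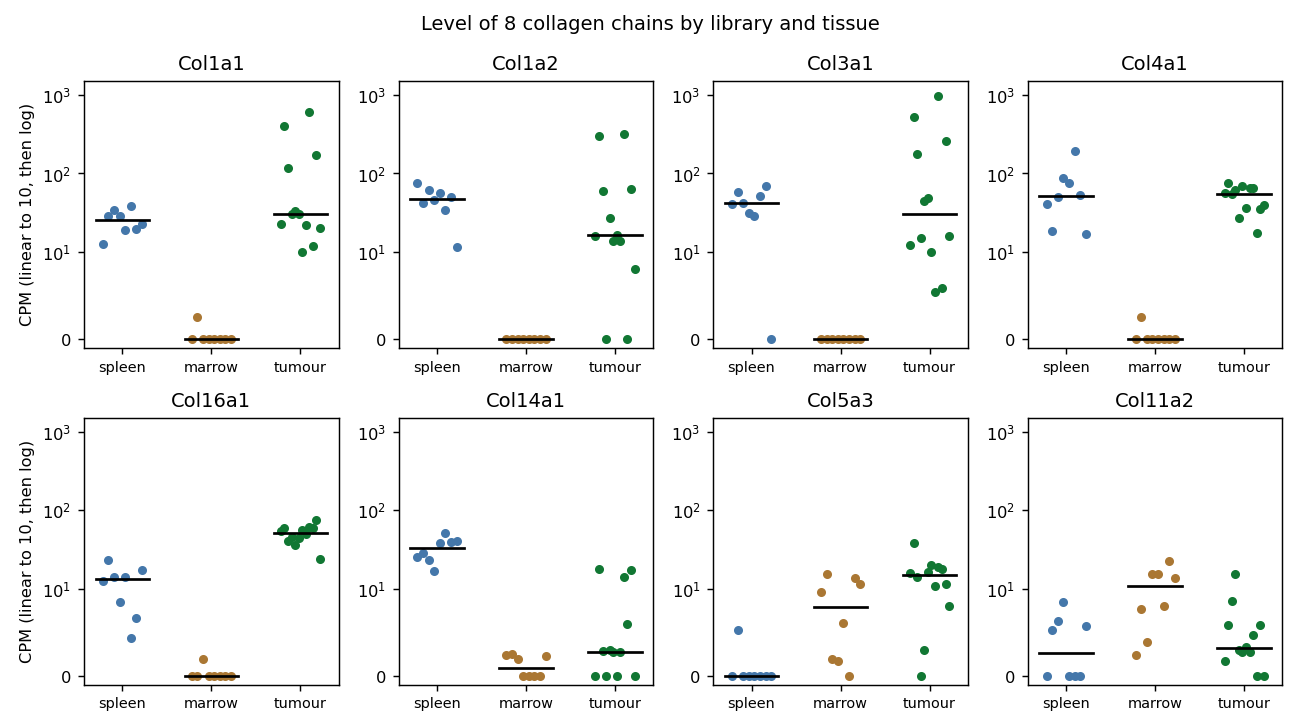
CPM of 8 chains in each library of spleen (8), bone marrow (8) and tumour cells (12), on an axis that is linear to 10 and logarithmic above; points are libraries and lines are medians. Col1a1, Col1a2 and Col3a1 spread widely in the tumours, Col16a1 lies at 24.1 to 75.4 CPM there, and Col5a3 and Col11a2 are counted in bone marrow.

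Bone marrow against spleen was the planned comparison that the columns allowed. With edgeR's quasi-likelihood test and its filter on low counts, none of the 44 chains was kept for testing. Of the 4239 genes tested 21.9% were called, 12.6% higher and 9.39% lower in bone marrow. The test was therefore read without a filter, where 38 chains could be fitted. Of these, 18 were lower in bone marrow, against 11% of 22736 genes, and 2 were higher, against 6.83% (17.8% in either direction). A call here and below is an adjusted p under 0.05 with at least a 2-fold difference. EdgeR draws its estimate of spread in part from all genes, so an unfiltered p does not measure a chain's own spread alone. The median log2 difference was -1.96 over the 38 chains and -0.2 over all genes fitted. By class, 4 of 9 fibrillar, 2 of 6 type IV, 5 of 6 type VI and 3 of 5 fibril-associated chains fitted were lower, with 1 of the 2 multiplexins and 1 each of the 3 short-chain, the 4 transmembrane and the 3 remaining chains. A fitted fold is no bound where bone marrow had no count, so the pooled levels are given against a floor of 3 counts over the group. Col1a2 was at least 60.9-fold lower in bone marrow and Col3a1 at least 51.6-fold lower. Col5a2, a type V chain, was at least 10.1-fold lower, from 22 counts in spleen and none in bone marrow. Col1a1 had 70 counts in spleen and 1 in bone marrow, a ratio of levels of 96.8 with a 95% interval of 16.8 to 3880 (Clopper-Pearson, counting error only).

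An exact 2-sided permutation test of single chains, on log2(CPM + 10) over the 8 and 8 libraries and not adjusted over chains, gave p = 0.000155 for Col1a1 and Col1a2 and p = 0.0014 for Col3a1. The smallest p that this design allows is 7.77e-05. Without spleen library 8 the unfiltered test lost the call of Col6a6, and without spleen libraries 5 and 6 that of Col11a2. No other call was lost in either case.

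The type IV chains of the ubiquitous basement membrane followed the type I chains in the marrow but not in the tumours. Col4a1 (chromosome 8, 11198423 to 11312826) was at 17.2 to 194 CPM in spleen (median 51.6), had 1 count in the 8 bone marrow libraries, and was at 17.7 to 76.2 CPM in tumour cells (median 55.4). Col4a2 (chromosome 8, 11312805 to 11449287), which joins Col4a1 in the same trimer, was at 14.2 to 99 CPM in spleen (median 35.6), at 0 to 5.09 CPM in bone marrow and at 0 to 61.6 CPM in tumour cells (median 30.9). Spleen and bone marrow did not overlap for either chain, whereas spleen and tumour cells overlapped almost throughout. Against spleen, the unfiltered edgeR test put bone marrow lower by a log2 difference of -6.73 (SE 0.54, adjusted p = 7.33e-32) for Col4a1 and of -4.06 (SE 0.47, adjusted p = 6.25e-16) for Col4a2. The exact permutation test gave an unadjusted p of 0.000155 for each. Col4a4, a chain of the kidney and inner-ear type of network, was low everywhere, with medians of 7.15 CPM in spleen, 2.86 in bone marrow and 12.1 in tumour cells. Its bone marrow difference from spleen did not pass the test (log2 difference -1.06, SE 0.57, adjusted p = 0.195).

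The type VI chains are made as a set of alpha 1, alpha 2 and alpha 3. Col6a1 was at 4.74 to 22.3 CPM in spleen, had 2 counts in bone marrow, and was at 0 to 60.9 CPM in tumour cells. Col6a2 was at 0 to 34.4 CPM in spleen, had 1 count in bone marrow, and reached 79.6 CPM in tumour cells. Col6a3 was at 0 to 17.2 CPM in spleen, had no count in bone marrow, and reached 90.9 CPM in tumour cells. All 3 were lower in bone marrow than in spleen in the unfiltered edgeR test, with adjusted p = 2.68e-06, 1.77e-07 and 1.6e-05. The exact permutation test gave unadjusted p = 0.000155, 0.00699 and 0.00699. Against spleen, tumour cells differed by log2 values of 0.29 for Col6a1 (adjusted p = 0.591) and 0.33 for Col6a2 (adjusted p = 0.539), which did not pass. Col6a3 was called higher (log2 difference 1.55, adjusted p = 0.00327), a call that was lost without tumour libraries 2 and 9.

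Among the fibril-associated chains, Col16a1 and Col14a1 differed between tissues in opposite ways. Col16a1 (chromosome 4, 130047840 to 130099283) was at 4.31 to 23.5 CPM in spleen (median 13.4), had 1 count in bone marrow, and was at 24.1 to 75.4 CPM in tumour cells (median 51.9). Every tumour library was above every spleen library. Col14a1 (chromosome 15, 55307750 to 55520803), which binds fibres and is known from dense connective tissue, was at 17 to 51.7 CPM in spleen (median 33.3), at 0 to 2.55 CPM in bone marrow, and at 0 to 17.6 CPM in tumour cells (median 2.8). Its tumour and spleen ranges met at their edges only. In the unfiltered edgeR test Col14a1 was lower in bone marrow by a log2 difference of -4.41 (SE 0.53, adjusted p = 1.63e-14) and lower in tumour cells by -2.48 (SE 0.42, adjusted p = 9.84e-08), both against spleen. The exact permutation test gave unadjusted p = 0.000155 for bone marrow and 3.97e-05 for tumour cells. Col12a1 had 11 counts in spleen, 0 in bone marrow and 22 in tumour cells.

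Of the other classes, the multiplexin Col18a1, a vessel basement membrane component, was the most abundant. Its medians were 21.8 CPM in spleen, 2.41 in bone marrow and 9.1 in tumour cells, and both differences from spleen passed the unfiltered edgeR test (adjusted p = 2.5e-07 for bone marrow and 0.0219 for tumour cells, lower in each), the second no longer without spleen libraries 5 and 6. Col10a1, the network chain of growth-plate cartilage, had medians of 11.4, 3.47 and 2.8 CPM, and its lower call in tumour cells against spleen (log2 difference -1.47, adjusted p = 0.0409) was lost without spleen library 8 and without tumour library 4. Col7a1, the anchoring fibril chain of skin, had 17 counts in spleen, 3 in bone marrow and 1 in tumour cells. The transmembrane chain Col23a1 had 5, 3 and 6.

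Col5a3 and Col11a2 were the 2 chains called higher in bone marrow than in spleen. Col5a3 (chromosome 9, 20770050 to 20815067), a type V chain, had 24 counts in bone marrow, where it was at 0 to 15.3 CPM, against 2 in spleen, both in library 2. It was higher again in tumour cells (median 15.1 CPM against 7.86 in bone marrow), by a log2 difference of 1.15 in the unfiltered edgeR test (SE 0.39, adjusted p = 0.01), a call lost without tumour libraries 2 and 9. Col11a2 (chromosome 17, 34039437 to 34066685), a type XI chain known from cartilage, had 39 counts in bone marrow, where it was at 2.41 to 22.7 CPM, against 10 in spleen. The unfiltered edgeR test called both higher in bone marrow, Col5a3 by a log2 difference of 2.78 (SE 0.8, adjusted p = 0.00434) and Col11a2 by 1.52 (SE 0.56, adjusted p = 0.0355). The exact permutation test gave unadjusted p = 0.00824 and 0.0106, and the groups overlapped for both. Col27a1 with 51 counts and Col5a1 with 33 did not differ past the test from spleen, with log2 differences of -0.16 and -0.3 (adjusted p = 0.804 and 0.663).

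Per length of exon, the order of the chains differed between tissues. On the scale of CPM per kilobase, the highest means in spleen were those of Col4a1 (9, SD 7.61) and Col4a2 (5.98, SD 3.92), followed by Col14a1, Col3a1, Col1a1 and Col1a2 at 4.71 to 3.8, which did not differ beyond their spread. In bone marrow the highest were Col11a2 (1.61, SD 0.989) and Col10a1 (1.41, SD 1.35), then Col27a1, Col5a3 and Col5a1 at 1.12 to 1.08. In tumour cells Col1a1 (18.7, SD 28.7) and Col3a1 (17.7, SD 30.1) led with an SD above the mean, followed by Col16a1 (7.46, SD 2) and Col4a1 (6.74, SD 2.48). By the median over the 12 libraries the order turned, with Col16a1 at 7.7, Col4a1 at 7.43 and Col4a2 at 4.67 above Col1a1 at 4.61 and Col3a1 at 3.12. Fibrillar chains made up 22.4% to 77.3% of the per-kilobase collagen level of a tumour library (median 31.7%), against 18.1% to 38.3% in spleen (median 26.7%). Type IV chains made up 6.01% to 59.1% in tumour libraries (median 31.4%) and 15.5% to 48.4% in spleen (median 24.9%).

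Markers of cells known to make collagen also differed between spleen and bone marrow. In the unfiltered edgeR test 6 of 8 fibroblast and reticular genes fitted, 6 of 9 endothelial genes and 5 of 7 pericyte and smooth muscle genes were lower in bone marrow, against 11% of all genes. The summed level of the 9 endothelial genes was 80.3 to 165 CPM in spleen and 26.7 to 62.6 CPM in bone marrow. The summed fibroblast and reticular list was 60.3 to 233 CPM in spleen and 49.9 to 110 CPM in bone marrow, where Pi16, a member that passed the filter, was higher (log2 difference 3.72, adjusted p = 3.34e-08), and Pdgfra, Lum, Pdpn, Fap, Ccl19 and Cxcl13 were at 0. In spleen Lum, Pdpn and Ccl19 of that list were at 0. The 9 osteoblast and cartilage genes summed to 5.74 to 13.1 CPM in spleen and 38.2 to 68 CPM in bone marrow, where Bglap, Bglap2, Acan, Sox9 and Matn1 were at 0. In such bulk samples fewer cells of a type and less RNA per cell cannot be told apart. The part of these markers in the collagen differences was not tested.

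Tumour cells were then compared with spleen, a comparison added because the planned lymph node columns could not be used. It sets sorted cells of a tumour beside whole frozen organ of another mouse, so that tissue and preparation cannot be told apart. With the filter, 6 chains were tested, 3 were higher in tumour cells and none lower, against 20.3% and 21.7% of the 3879 genes tested (41.9% in either direction). Col16a1 was higher by a log2 difference of 1.74 (SE 0.27, adjusted p = 2.05e-06), Col1a1 by 2.05 (SE 0.68, adjusted p = 0.0103) and Col3a1 by 1.88 (SE 0.77, adjusted p = 0.0348). Col1a2 (0.38, adjusted p = 0.604), Col4a1 (-0.51, adjusted p = 0.177) and Col4a2 (-0.39, adjusted p = 0.342) did not pass. The median log2 difference of all genes tested was -0.03. None of these 6 chains was kept by the filter for bone marrow against spleen, so their tumour levels took part in keeping them, and the filter left out chains high in spleen such as Col14a1. The counts with the filter are therefore a description.

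The 3 calls did not rest on the same libraries. For Col16a1 the exact 2-sided permutation test over 12 and 8 libraries gave p = 7.94e-06, the smallest it can give. For Col1a1 it gave p = 0.164 and for Col3a1 p = 0.484, on log2(CPM + 10). Without tumour libraries 2 and 9, Col16a1 stayed higher in edgeR's test (log2 difference 1.83, adjusted p = 2.78e-06). Col3a1 lost its call (0.43, adjusted p = 0.547), Col1a1 no longer passed the filter, and Col1a2 was called lower (-1.11, adjusted p = 0.0164). Libraries 2 and 9 are the highest in Col1a1, Col1a2 and Col3a1, so leaving them out must lower these chains. Such changes show which libraries the calls rest on and are no test of the difference. Without spleen library 8, Col3a1 missed the threshold as well (1.73, adjusted p = 0.0558), and without tumour library 4, the smallest library, Col1a1 no longer passed the filter.

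Without the filter, 42 chains could be fitted, of which 8 were higher in tumour cells (12.3% of all 23186 genes were) and 7 lower (19% were), where 31.3% of all genes were called. The median log2 difference was 0.46 over these chains and -0.2 over all genes fitted. Those called higher were Col1a1, Col3a1, Col16a1, Col5a1, Col6a3, Col5a3, Col4a5 and Col2a1. The 5 largest folds among those lower were of Col6a4, Col7a1, Col13a1, Col14a1 and Col27a1. Col5a3 had 55 counts in tumour cells and 2 in spleen (log2 difference 3.83) with an exact permutation p of 0.000294, unadjusted. Col4a5, an X-linked type IV chain, had 31 counts and 2 (log2 difference 3.02) with p = 0.0125 by the same exact test. Col2a1, the cartilage type II chain, had 13 counts in tumour cells and none in spleen, so that it was at least 3.23-fold higher (unadjusted exact permutation p = 0.0103). For Col5a1 and Col6a3, also called higher by edgeR, the exact permutation test gave unadjusted p = 0.249 and 0.213. Of the 29 chains with at least 10 counts, that test put 4 higher and 7 lower at an unadjusted p under 0.05. The permutation test was run on the chains alone, and the shares of all genes given above are of edgeR's test. Without tumour libraries 2 and 9, Col1a1, Col3a1, Col5a1 and Col6a3 were no longer called higher, leaving 4 of the 8. Without spleen libraries 5 and 6, Col15a1, Col20a1, Col5a2 and Col6a6 were called as well. In this unfiltered fit the SE of Col3a1 was 0.33, against 0.77 with the filter, and its adjusted p in edgeR was 5.24e-09 against 0.0348. In the fit without the filter 6 of 10 fibroblast and reticular genes were lower and 1 higher in tumour cells, 6 of 9 endothelial genes were lower, and 4 of 7 pericyte and smooth muscle genes were lower and 2 higher. The summed fibroblast and reticular list had a median of 15.8 CPM in tumour cells and 129 CPM in spleen, and its part in the collagen differences was not tested.

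Against bone marrow, 3 chains passed the filter and all 3 were higher in tumour cells, where 21.6% of the 4585 genes tested were (25.4% were lower, 46.9% either). Col4a1 was higher by a log2 difference of 6.32 (SE 0.48, adjusted p = 1.29e-14), Col16a1 by 6.27 (SE 0.43, adjusted p = 5.84e-16) and Col4a2 by 3.82 (SE 0.49, adjusted p = 8.06e-09). A chain that is near 0 in bone marrow could pass this filter only through its tumour level, so these counts are a description. Without the filter, 21 of 39 chains were higher, against 15.6% of 22509 genes, and 2 were lower, against 19.5% (35.1% in either direction). The median was 1.38 over the chains and -0.07 over all genes. The 2 lower were Col11a2 (-1.46, adjusted p = 0.00698) and Col27a1 (-1.44, adjusted p = 0.00223). The exact permutation test put 14 of 24 chains with at least 10 counts higher and 2 lower, at an unadjusted p under 0.05. It was run on the chains alone, so no share of all genes can be set beside that count. Chains called higher by edgeR that missed this threshold include Col5a1 (exact permutation p = 0.161), Col15a1 (p = 0.131) and Col14a1 (p = 0.0821). By pooled level Col3a1 was at least 187-fold higher in tumour cells, Col1a2 at least 81.6-fold and Col6a3 at least 24.1-fold. Col1a1 had 391 counts in tumour cells and 1 in bone marrow, a ratio of levels of 404 with a 95% counting interval of 72 to 16000. Without tumour libraries 2 and 9, Col4a2 no longer passed the filter, and in the unfiltered test the calls of Col14a1, Col15a1, Col28a1, Col5a1 and Col5a3 were lost.

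The 12 tumour libraries differed widely in chains of types I, III, V and VI. Col3a1 had 176 counts in library 2, 209 in library 9, 61 in library 3 and 45 in library 11, and 1 to 18 in each of the other 8. Libraries 2 and 9 held 15.4% of all tumour counts but 71% of those of Col3a1, 71.7% of Col1a2, 67.8% of Col1a1, 62.3% of Col6a2, 61.8% of Col5a2, 61.4% of Col6a3, 56.9% of Col5a1 and 52% of Col6a1. These chains of types I, III, V and VI were therefore high in the same pair of libraries. Col16a1 (19.1%), Col4a1 (21.9%), Col4a2 (29.3%) and Col5a3 (30.9%) were less concentrated there. The coefficient of variation over the 12 libraries was 1.7 for Col3a1 and 1.53 for Col1a1, 1.53 for Col6a2 and 1.36 for Col6a3, and 0.268 for Col16a1 and 0.368 for Col4a1.

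**Figure D3:**
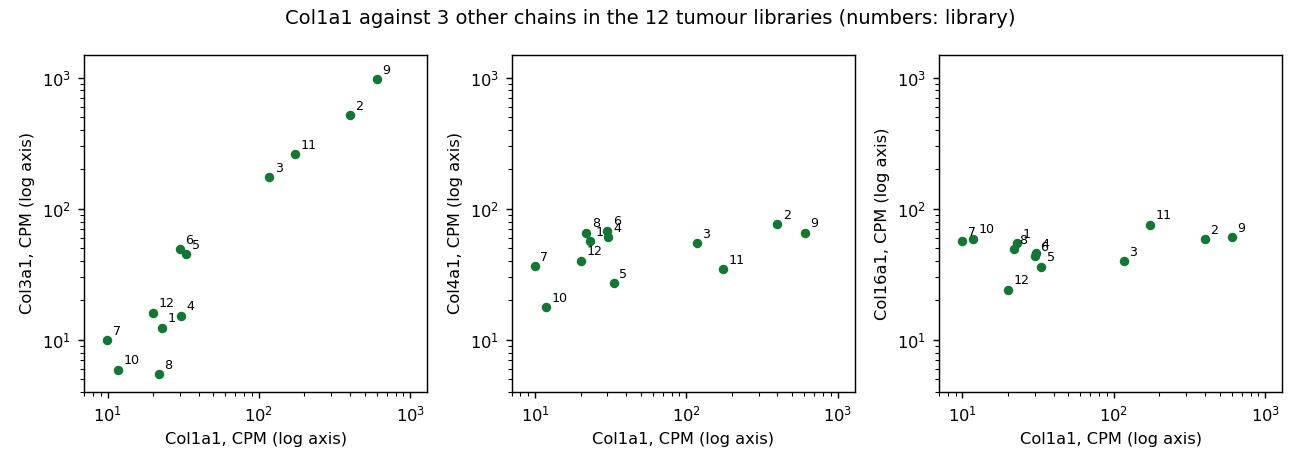
Col1a1 on the x axis against Col3a1, Col4a1 and Col16a1 on the y axes, in CPM on logarithmic axes, for the 12 tumour libraries labelled by number. Libraries 3, 11, 2 and 9 stand apart in Col1a1 and in Col3a1, and lie at 34.8 to 76.2 CPM in Col4a1, where the other 8 lie at 17.7 to 68.3, while library 11 is the highest in Col16a1.

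Col1a1 left a gap between 8 libraries at up to 33.1 CPM and 4 at 117 CPM or more, wider than any other (1.83 against 1.2 on the log2 scale). Since the libraries fell into separate sets, no correlation over all 12 is given. Within the 8 lower libraries, Pearson's r of Col1a1 with Col3a1 was 0.7 (exact permutation p = 0.0506) and Spearman's rho 0.62 (exact p = 0.115). That of Col4a1 with Col4a2 was 0.74 (exact permutation p = 0.0363) with a rho of 0.62. With Col1a2 Col1a1 had an r of 0.22. None of the 13 relations passed after Benjamini-Hochberg adjustment, the smallest adjusted permutation p of r being 0.298. The 8 libraries were set apart by the level of Col1a1 itself, which narrows its range. These values therefore cannot decide whether Col1a1 moves with the other chains. Of these libraries, those numbered 4 and 10 had 2 counts of Col1a1 each, so the levels behind these values are coarse.

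Fibroblast markers moved with the same libraries in part. The summed fibroblast and reticular list was 178 CPM in tumour library 9 and 49.8 in library 2, against a median of 15.8 over the 12. It was 31.5 in library 3 and 5.8, the lowest value, in library 11. Of its 11 genes, 9 had a count in the tumour libraries and Ccl19 and Cxcl13 had none. Endothelial genes summed to 7 counts in library 2 and 2 counts in library 9, within their range of 0 to 11. The part of fibroblasts in the fibrillar collagen of these libraries was not tested.

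The ratio of chain pairs within a library does not depend on its scaling. Col1a1 had 0.53 times the counts of Col1a2 in the spleen libraries together and 1.65 times in the tumour libraries. Per library, the log2 ratio was -0.77 ± 1.01 (SD, n = 8) in spleen and 0.94 ± 0.83 (SD, n = 12) in tumour cells, a difference of 1.71 (exact 2-sided permutation p = 0.000556, 0.00167 after adjustment over the 3 pairs). All 12 tumour libraries lay above the spleen median, with overlap between the groups. With only the libraries that had at least 5 counts of the pair (8 and 10), the difference was 1.43 (exact permutation, adjusted p = 0.00543). Col3a1 to Col1a1 had a log2 ratio of 0.31 ± 1.52 (SD, n = 8) in spleen and -0.09 ± 0.79 (SD, n = 12) in tumour cells (exact permutation, adjusted p = 0.652). Col4a1 to Col4a2 had 0.56 ± 0.89 (SD, n = 8) and 0.78 ± 1.01 (SD, n = 12), with the same adjusted p of 0.652 by exact permutation. These 3 pairs were chosen after the counts had been seen.

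**Figure D4:**
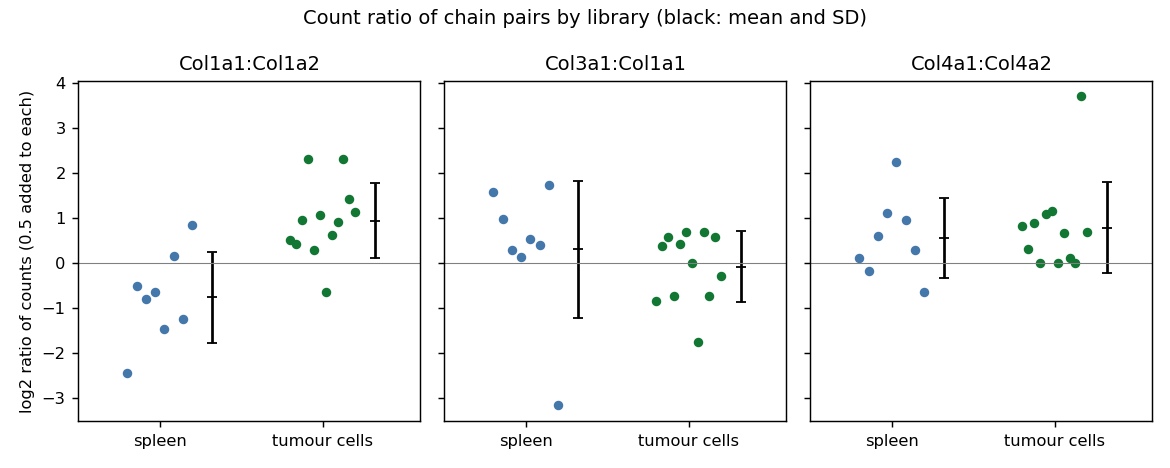
Log2 ratio of the counts of 3 chain pairs in each spleen (8) and tumour (12) library, with 0.5 added to each count; points are libraries, black marks the mean and the bar 1 SD. For Col1a1 to Col1a2 the tumour mean is 0.94 and the spleen mean -0.77, while for the other pairs the adjusted p was 0.652.

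The machinery of collagen production was read from 5 lists. The open question of the counted strand holds for these genes too, and their partners on the opposite strand were not looked up. Of 20 folding and modification genes, 11 passed the filter for tumour cells against spleen, 6 of them higher and 1 lower (20.3% and 21.7% of all genes tested were). Plod2, which hydroxylates lysines in the cross-linking regions, was higher by a log2 difference of 4.18 (SE 0.39, adjusted p = 3.15e-10), and Serpinh1, the collagen chaperone HSP47, by 2.88 (SE 0.27, adjusted p = 4.23e-10). Ppib, a proline isomerase of the endoplasmic reticulum, was lower (-3.7, SE 0.37). Against bone marrow 5 of 10 were higher and 2 lower, with Serpinh1 at 7.41, Plod2 at 7.89 and P3h3, a prolyl hydroxylase family member, at 4.59 on the log2 scale. Of all genes tested in that comparison, 21.6% were higher and 25.4% lower. In bone marrow against spleen 2 of 6 folding genes were higher, Plod3 (1.48) and P4hb (1.13), and Ppib was lower (-2.27). There 12.6% of all genes tested were higher and 9.39% lower. Neither Serpinh1 nor Plod2 was kept by the filter for bone marrow against spleen, so their tumour levels took part in keeping them here. Without the filter, 9 of 20 folding genes were higher and 1 lower in tumour cells than in spleen (12.3% and 19% of all genes were). Against bone marrow 11 were higher and 2 lower without the filter (15.6% and 19.5% of all genes were).

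Of the 13 trimming and cross-linking genes, 3 were tested against spleen. Pcolce2, an enhancer of propeptide removal, was lower in tumour cells (-6.17, adjusted p = 1.2e-13) and in bone marrow (-3.89, adjusted p = 8.25e-08), and Pcolce and Loxl3 were not called in either. Of the 11 receptors, the collagen-binding kinase Ddr2 was higher in tumour cells than in spleen (3.07, adjusted p = 4.61e-08) and bone marrow (4.94, adjusted p = 6.75e-14). Itgb1, the integrin beta 1 chain, was higher by 1.77 than in bone marrow and by 0.85, under the 2-fold limit, than in spleen. Among the 11 breakdown genes, the neutrophil proteases Mmp8 and Mmp9 were higher in bone marrow than in spleen (6.02 and 5.84 on the log2 scale), and lower in tumour cells than in bone marrow (-9.74 and -10.35). The gelatinase Mmp2 and the membrane-bound Mmp14 were higher in tumour cells than in spleen (2.56 and 2). For bone marrow against spleen the filter kept 1 receptor, not called, and of the breakdown genes only Mmp8 and Mmp9. Tumour levels thus took part in keeping genes such as Ddr2, Mmp2 and Mmp14. Without the filter, 4 of 11 receptors were higher in tumour cells than in spleen and 2 lower. Of 10 breakdown genes fitted, 3 were higher and 3 lower. Of the 13 basement membrane partners of type IV, 3 passed the filter and were higher in tumour cells than in spleen, Lama4 (3.47), Lamc1 (2.04) and Hspg2 (1.52), and none passed it for bone marrow against spleen. Without the filter, 6 of the 13 were higher in tumour cells than in spleen, 1 was lower and 6 were not called. Of all genes fitted there, 12.3% were higher and 19% lower. Lama4 and Lamc1 are laminin chains and Hspg2 encodes perlecan. Against bone marrow the same 3 were higher by 6.73, 4.01 and 7.01.

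Knockout against wild type in the tumour cells could be read only from the authors' deposited table, which gives no sign convention. Its mean log2 CPM followed that of the 12 tumour columns across 11340 genes (Spearman's rho 0.998, a description in which genes are not replicates). The authors' deposited table lists 22 of the 44 chains and calls none at an adjusted p under 0.05, against 0.644% of its 11340 genes (0.326% positive, 0.317% negative). By the authors' deposited table a single chain of the 22 had an unadjusted p under 0.05, against 16.8% of all genes. That chain was Col2a1, with a log2 fold change of 1.74 (p = 0.0353, adjusted p = 0.261) in the authors' deposited table, and it had 13 counts in the 12 tumour libraries. The other 7 chains with the smallest p in the authors' deposited table were Col4a5 (-1.1), Col6a3 (-0.77), Col27a1 (-0.91), Col15a1 (-0.7), Col4a1 (-0.33), Col4a3 (0.57) and Col3a1 (0.37), and their adjusted p lay between 0.386 and 0.751. Of the 22 chains 11 had positive and 11 negative values in the authors' deposited table, while its median over all genes was -0.14. Col1a1 (0.16), Col1a2 (-0.29), Col16a1 (0.15) and Col4a2 (-0.04) were between -0.29 and 0.16 in the authors' deposited table (adjusted p between 0.797 and 0.968). The authors' deposited table gives no standard error.

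**Figure D5:**
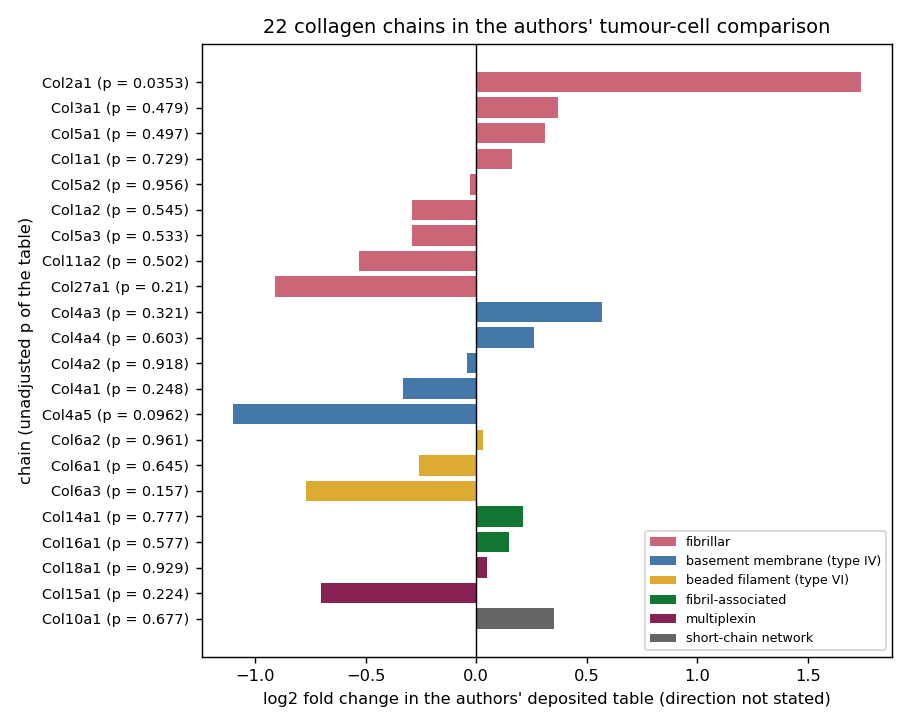
Log2 fold change of the 22 chains in the authors' deposited table of the tumour cells, by class, with the table's unadjusted p beside each symbol; the table does not say which genotype a positive value favours. The bars run from -1.1 for Col4a5 to 1.74 for Col2a1, with 11 on each side of 0.

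Of the 5 lists of the pathway, none had a gene called in the authors' deposited table. Basement membrane partners had 8 of 10 values below 0 in the authors' deposited table, with a median of -0.63, where 6639 of all 11340 genes were below 0. Of these, 4 had an unadjusted p under 0.05, led in the authors' deposited table by Hspg2 (-0.87, adjusted p = 0.115), Lamc1 (-0.74, adjusted p = 0.149) and Agrn (-0.76, adjusted p = 0.223). Of 17 folding genes 13 were below 0 in the authors' deposited table (median -0.33), with the smallest p for Mia3 (-0.54), P4hb (-0.37) and Serpinh1 (-0.38), and adjusted p between 0.257 and 0.341. Itgb1 (-0.41), Itga1 (-1.46) and Ddr2 (-0.55) led the receptors in the authors' deposited table (adjusted p between 0.293 and 0.306), and Timp2 (-0.8, adjusted p = 0.145) the breakdown genes. All 8 melanocyte genes were below 0 in the authors' deposited table as well (median -0.67), and 2 were called. The part of melanoma cell content in these values was not tested.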

How the data were processed

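Polyadenylated RNA of mouse spleen, bone marrow and sorted CD45-negative tumour cells was sequenced as paired 50 base reads with the TruSeq Stranded mRNA Kit, per the labels' protocols. The submitters' processing notes name HISAT2, edgeR, GRCm38 and mm10; no source used here gives the counting program, its strand setting or the annotation release. The deposited count table holds raw counts per gene, per the file headers, of which 28 columns were tied to a group by name and 20 were not used. Its coordinates matched GENCODE M21 on GRCm38 for 98.8% of genes. The deposited table of the authors' comparison holds, per the file headers, log2 fold changes, mean log2 CPM, an F score and p-values with adjusted p-values.

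Groups came from the labelled tissue source. Counts were tested with edgeR 4.0.16 (R 4.3.3) in its quasi-likelihood form, with TMM scaling, filterByExpr (minimum count 10) and Benjamini-Hochberg adjustment over all genes. DESeq2 1.42.0 was an alternative. No label ties a column to an animal, so p-values measure only the spread between these samples, which may be technical. In edgeR that spread is estimated in part across genes, so it is not a chain's own spread alone. On simulated counts of 4239 genes for bone marrow against spleen, the filtered test recovered 73% of 4-fold and 35% of 2-fold changes. Without the filter, on 22736 genes, it recovered 37% and 1%. The simulation gave every gene the same dispersion and set no minimum fold, so it does not describe chains that spread more widely. Library totals were 54117 to 637985 counts. Permutation tests used scipy 1.17.1 and numpy 2.4.6. The members and lists were chosen with earlier results of these data known. Described were the 4 fibrillar, 3 type IV, 3 type VI and 3 fibril-associated chains and 1 of each other class with the highest mean level, the 5 largest called folds in each direction, the 8 chains with the smallest p in the authors' table and the 3 such genes of each pathway list. Comparisons of tumour cells with spleen and bone marrow, permutation tests, chain ratios and library omissions were added after the counts had been seen. Planned comparisons with lymph node were not run.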

Additional observations from a re-analysis of the deposited data

Results flagged for a closer look

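In spleen, library 6 was far from the others in both chains of the common type IV network. Col4a1 was at 194 CPM there (45 counts), against 88 in the next library, and Col4a2 at 99 CPM (23 counts), against 43.1. In bone marrow, library 8 stood apart in Col4a4 with 13.7 CPM, from 6 counts, against 4.81. Each of these gaps to the nearest library was more than 0.526 of the whole range of the 8 libraries. Of the 19 sets of 8 libraries examined 3 were found. The nominal rate of about 1 in 20 holds for independent normal values. These counts are low, and Col4a1 and Col4a2 stood out in the same spleen library, so no excess over chance can be read from it. Spleen libraries 5 and 6 also had the highest sums of the 7 erythroid markers, 5690 and 5650 CPM against a median of 1230, and the part of that in the type IV level was not tested.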

How the results depend on the processing

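The columns run from 1 to 8 in spleen and bone marrow, while the titles number animals 1 to 4 within a genotype, so the numbers of the columns are not those of the titles. Equal numbers deviated together with a correlation of -0.03 to 0.48, above 0.1 for 5 of 8, and 5 of 8 bone marrow libraries correlated best with their own number. With the column number as a replicate block, an alternative added after the data were seen, bone marrow against spleen had 0 called chains with the filter, and 2 higher and 16 lower without it, all among the 20 called without the block; Col6a6 and Col8a2 were lost. With the filter, DESeq2 size factors, upper-quartile scaling, the DESeq2 Wald test and no minimum fold left every count of called chains as it was. For bone marrow against spleen the filter kept no chain under these settings, so that count could not change. The unfiltered fits were not repeated with these settings. Upper-quartile scaling moved the median of all genes for tumour cells against spleen from -0.03 to 0.20 on the log2 scale, and the share of higher calls from 48.4% to 58.6%. For tumour cells against bone marrow it moved the median from -0.05 to 0.09. Bone marrow against spleen had 0 called chains with the filter, 2 higher and 18 lower without it, 6 lower with all 3 groups in 1 fit, and 1 lower without spleen library 8; the filter decided which chains could be tested. Without a filter and without spleen libraries 5 and 6, 1 chain was higher. Tumour cells against spleen had 3 higher and 0 lower, 8 and 7 without the filter, and 1 and 1 without tumour libraries 2 and 9, where the unfiltered test had 4 higher. Tumour libraries 2 and 9 are the highest in Col1a1, Col1a2 and Col3a1, so their omission must lower these chains. Tumour cells against bone marrow had 3 higher (2 without tumour library 4, or without 2 and 9), 21 higher and 2 lower without the filter, 6 higher with 3 groups in 1 fit, and 1 higher when genes with opposite-strand exons were left out. That omission takes out Col4a1 and Col4a2. For Col3a1, Col1a1 and Col1a2 the changes without single libraries stand in the report. Levels without TMM moved by less than 1 SD in all 51 values compared. In the authors' table, 0 chains were called also at an adjusted p under 0.1 or with adjustment over protein-coding genes alone. At the depth of these libraries and the same dispersion for every gene, the unfiltered test of bone marrow against spleen recovered 1% of simulated 2-fold changes over 22736 genes.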
